A study of Homo sapiens with 10 samples.

Results

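The H/ACA box small nucleolar RNAs and the small Cajal body RNAs were taken from the table of PC3 cells by their symbols, which start with SNORA or SCARNA and continue with a digit. The rule gave 174 of the 62656 genes of the table, 149 SNORA and 25 SCARNA genes, under 168 different symbols. PC3 is a human prostate cancer line that was derived from a bone metastasis. After a night of starvation the cells received either the vehicle DMSO or GW3965 at 1 µM, a synthetic compound that activates the liver X receptors (LXR), for 24 h in RPMI-1640 with glutamine, and each condition was measured in 5 libraries of total RNA depleted of ribosomal RNA, read as single reads of 50 bases with the strand kept. The sources do not say whether the 5 libraries of a condition came from separate cultures, so the p-values measure the spread between these libraries. The questions addressed here were which of these RNAs could be read in PC3 cells, how far their levels varied between libraries, and whether they differed between GW3965 and DMSO.

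H/ACA RNAs fold into a pair of hairpins that are followed by a hinge (box H) and a tail (box ACA). They pair with a target RNA and direct the enzyme dyskerin to turn a uridine of it into pseudouridine. The SNORA RNAs work mainly on ribosomal RNA in the nucleolus, while the scaRNAs act on the small nuclear RNAs of the spliceosome in the Cajal body, a nuclear compartment organised by coilin. In human cells most of these RNAs are not made from genes of their own but are released from introns of a host gene after splicing and trimmed at both ends. Box C/D RNAs are the sister class, which guide 2′-O-methylation with fibrillarin, and several scaRNAs are of box C/D type or join both types in 1 molecule.

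The recovered depth lay between 30429516 and 41636535 reads per library, of which the 7SL RNAs took 12.03% to 23.2%. The epithelial keratins KRT8 and KRT18 were at 29.8 to 41.4 and 42.7 to 58.5 RPKM (reads per kilobase of gene, scaled between libraries by the authors). The prostate gene KLK3 was listed at 0, and PECAM1 and PTPRC of vessel and blood cells stayed under 0.76 and 0.0244 RPKM. The LXR target ABCA1 was at 3.43 ± 1.34 RPKM with DMSO and 16.5 ± 2.37 RPKM with GW3965 (SD, n = 5 each, limma adjusted p = 0.00063).

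The members were a small part of these libraries. All 174 together took between 0.0158% and 0.0206% of the reads of a library. Of these genes, 80 had 0 reads in all 10 libraries, 94 had reads in at least 1, and 42 had a mean of at least 10 reads per library. The reads were concentrated on a few RNAs. SNORA73B alone held 26.7% of all member reads and SCARNA5 21.4%, and with SNORA53 and SCARNA6 the share reached 68.0%. The 9 members with a mean of at least 100 reads held 81.7%.

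These most abundant members are shown with their sequences, since their boxes tell which class a reader is looking at. The sequences are those of the GENCODE 29 transcripts (GRCh38), written 5′ to 3′ as DNA. In the H/ACA RNAs, the capitals mark the ACA box, which was searched as ACA within the last 7 bases. In SCARNA5 and SCARNA6 the capitals mark the C box (TGATGA) near the start and the last D box (CTGA), and for SCARNA9, of which bases 204 to 353 are printed, the C box of the 3′ part and the last D box.
SNORA73B: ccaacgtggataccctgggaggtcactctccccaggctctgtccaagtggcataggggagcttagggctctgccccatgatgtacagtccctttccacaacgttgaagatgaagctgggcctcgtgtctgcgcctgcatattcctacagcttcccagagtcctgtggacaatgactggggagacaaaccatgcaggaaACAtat
SNORA53: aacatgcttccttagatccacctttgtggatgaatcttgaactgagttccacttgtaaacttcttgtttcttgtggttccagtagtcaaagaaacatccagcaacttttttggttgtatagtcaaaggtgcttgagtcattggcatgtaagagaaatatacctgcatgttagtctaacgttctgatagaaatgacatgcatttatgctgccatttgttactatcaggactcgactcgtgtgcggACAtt
SCARNA21: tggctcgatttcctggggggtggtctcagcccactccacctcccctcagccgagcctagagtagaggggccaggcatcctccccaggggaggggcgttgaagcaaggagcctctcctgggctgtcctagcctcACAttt
SCARNA5: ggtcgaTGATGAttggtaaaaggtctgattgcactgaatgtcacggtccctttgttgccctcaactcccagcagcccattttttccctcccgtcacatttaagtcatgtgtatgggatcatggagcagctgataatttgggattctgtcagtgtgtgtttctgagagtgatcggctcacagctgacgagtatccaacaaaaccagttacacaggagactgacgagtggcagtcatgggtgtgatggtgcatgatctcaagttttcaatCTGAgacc
SCARNA6: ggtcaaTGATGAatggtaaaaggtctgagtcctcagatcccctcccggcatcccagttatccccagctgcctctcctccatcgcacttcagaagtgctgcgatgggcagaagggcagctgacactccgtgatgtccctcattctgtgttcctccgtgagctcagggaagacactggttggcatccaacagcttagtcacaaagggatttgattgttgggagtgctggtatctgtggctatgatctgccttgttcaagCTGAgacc
SCARNA9: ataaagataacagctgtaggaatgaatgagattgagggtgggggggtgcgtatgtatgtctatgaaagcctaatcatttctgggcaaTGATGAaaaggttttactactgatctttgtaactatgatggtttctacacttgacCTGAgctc
SNORA73B lies at chr1:28508559-28508762 on the plus strand in the region of RCC1 and is 204 bases long. SNORA53 (chr12:98599635-98599883, plus strand) lies within SLC25A3, the mitochondrial phosphate carrier, and SCARNA21 (chr17:7906122-7906260, plus strand) within the chromatin remodeller CHD3. SCARNA5 (chr2:233275727-233276002) and SCARNA6 (chr2:233288676-233288940) lie 12674 bases apart on the plus strand of the autophagy gene ATG16L1. SCARNA9 (chr11:93721513-93721865, plus strand) lies within CEP295, which encodes a centriole protein.

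The box search was run over all members. ACA was present in the last 7 bases of 136 of 149 SNORA genes (91.3%) and of all 17 scaRNAs classed as H/ACA, against 13 of 280 box C/D genes with SNORD symbols (4.6%). TGATGA in the first 30 bases together with CTGA in the last 25 was present in 194 of the 280 SNORD genes (69.3%), in 1 of the 149 SNORA genes, in 1 of the 17 H/ACA scaRNAs (5.9%), in all 4 scaRNAs classed as composite (SCARNA5, SCARNA6, SCARNA10 and SCARNA12) and in 1 of the 4 classed as box C/D (SCARNA2, SCARNA7, SCARNA9 and SCARNA17). ACA was also present in the last 7 bases of 1 of the 4 composite scaRNAs and of none of the 4 box C/D scaRNAs. The motifs were searched on the RNA strand only, and a match describes the letters, not a working box.

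Most members without reads shared their place with other annotated exons. Every window of 50 bases, the length of a read, was taken along each member and compared with the exons of other genes on the same strand in GENCODE 29. In 62 members no window was free of another exon, and 58 of these (93.5%) had 0 reads in all libraries, while the highest mean among the other 4 was 0.9 reads. The 62 include SCARNA4, SNORA16A, SNORA17B, SNORA50A, SNORA50B and SNORA50D, each listed under more than 1 identifier at nearly the same position. For these, each entry was counted as a member, and the other entry counted as an exon of another gene. In 104 members all windows were free, and 21 of these (20.2%) had 0 reads. In the remaining 8, with some windows free, 1 had 0 reads. Reads that fall on more than 1 gene are commonly left uncounted by a counting program, and the counting rule of the deposited table is not given in the sources used here.

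The unread members include well-known RNAs, named here after their values were seen. SCARNA2, a guide of U2 snRNA, SCARNA12 in the prohibitin gene PHB2, SCARNA15, SCARNA16, SCARNA17 and both entries of SCARNA4 had no free window and 0 reads in every library. The same held for SNORA36A and SNORA56, which lie in DKC1, the gene of dyskerin itself. The entries of SCARNA4 lie at nearly the same position, so that each alone leaves the other without a free window. Among hosts with several members that had no free window and 0 reads, TAF1D, a subunit of the RNA polymerase I factor SL1, had 6. The non-coding host SNHG12 had 4, counting both entries of SNORA16A at nearly the same position, and the translation factor EIF4A2 had 3. SNORA73A, the close relative of SNORA73B, was another, so that only the B copy of this pair was read. Of RNAs outside the families, RN7SK, the RNA that holds the elongation factor P-TEFb, and RPPH1 of RNase P were also listed at 0, whereas RMRP, the RNA of RNase MRP, was at 7738 ± 387 RPKM with DMSO and 6917 ± 650 RPKM with GW3965 (SD, n = 5 each). At these zeros, absence of the RNA and reads left uncounted cannot be told apart.

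The 21 unread members with all windows free were of another kind. No host gene was annotated for 7 of them, 7 lay in long non-coding RNA genes, 5 in protein-coding genes and 2 in pseudogenes. Free windows are free of other exons, but their sequence need not be unique. All 86 windows of SNORA15B-1, which is among these members, also occur in SNORA15 or SNORA15B-2. What this does to its count was not tested. SNORA71A, SNORA71C and SNORA71D lie in SNHG17, a non-coding host whose exons cover 4186 bases in GENCODE 29 but 11905 bases in the length behind the deposited values. SNORA26 lies in DANCR, with 2285 and 10179 bases, and SCARNA13 in SNHG10, with 1945 and 5437 bases. In all, the exon length behind the deposited values was longer than in GENCODE 29 for the hosts of 10 of the 21 members. The annotation used for the counts thus held exons that GENCODE 29 does not, and whether these cover the members was not tested. A count of 0 in a library allows up to 3 reads, for counting error only.

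The box C/D genes were examined in the same way. Of 280 SNORD genes, 101 had no free window, and 94 of these (93.1%) had 0 reads. Among the 177 with all windows free, 91 (51.4%) had 0 reads, against 20.2% of the members; this difference was not tested.

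Longer members were read more. Among the 104 members clear of other exons, 91 were under 150 bases, and their median level was 0.826 RPKM. The 11 members of 180 bases or more had a median of 16.2 RPKM, and 6 of them had a mean of at least 100 reads, against 1 of the 91. RPKM is already divided by length, so this difference is one of level per base. SCARNA21, with 139 bases, was the single short RNA among the 9 most read members, whose lengths ran from 139 to 353 bases with a median of 249. The protocol broke the RNA into fragments and cleaned the libraries on beads, and what these steps do to RNAs of this size was not tested.

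**Figure D1:**
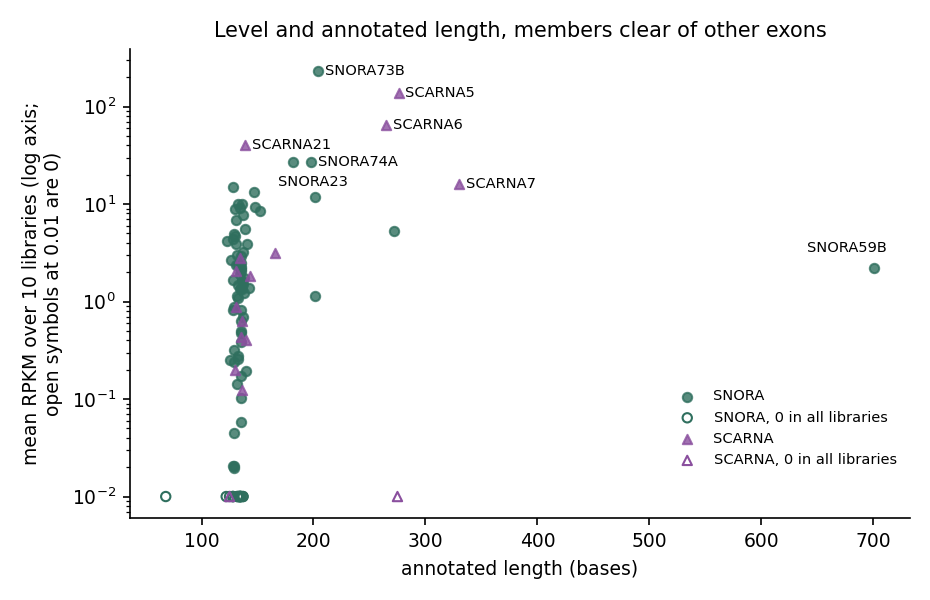
Mean RPKM over the 10 libraries (log axis) against annotated length in bases for the 104 members with all windows free of other exons; circles are SNORA and triangles SCARNA genes, and open symbols drawn at 0.01 are genes listed at 0. Members under 150 bases reached at most 40.8 RPKM, the level of SCARNA21, while SNORA73B stood at 234 RPKM.

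SNORA73B, also called U17, is an H/ACA RNA that takes part in the cleavage of the ribosomal RNA precursor rather than in pseudouridylation. It was at 258, 258, 211, 223 and 220 RPKM in the DMSO libraries 1 to 5 and at 188, 214, 239, 279 and 251 RPKM in the GW3965 libraries 1 to 5. The groups overlapped fully, with the GW3965 libraries holding both the lowest and the highest value. The log2 fold change was -0.004 (95% interval -0.24 to 0.23), which excludes a change of more than 1.18-fold upward or to less than 0.846 of the control.

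SNORA53 was at 77.5, 71.1, 67.1, 72.9 and 63.3 RPKM with DMSO and at 72.2, 77.4, 68.9, 91.4 and 83.7 RPKM with GW3965. Its log2 fold change was 0.16 (SE 0.09, limma adjusted p = 0.785), and the groups overlapped. SNORA74A, known as U19 and placed in the gene of the nuclear matrix protein MATR3, was at 30.1, 25.9, 22.0, 28.5 and 24.2 RPKM with DMSO and at 26.4, 27.2, 24.3, 28.4 and 31.2 RPKM with GW3965. All 5 GW3965 values lay within or just above the DMSO range. SNORA23, in the importin gene IPO7, was at 35.2, 28.5, 22.9, 27.3 and 21.7 RPKM with DMSO and at 23.3, 22.7, 29.3, 32.7 and 25.6 RPKM with GW3965. Here the widest DMSO spread of the 9 most read members was seen, with a coefficient of variation of 19.7%, and the GW3965 values fell inside it.

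SCARNA5 and SCARNA6, the composite scaRNAs U87 and U88, come from different introns of ATG16L1. SCARNA5 was at 132, 164, 171, 149 and 122 RPKM with DMSO and at 130, 125, 128, 130 and 136 RPKM with GW3965. The GW3965 libraries were close together (coefficient of variation 3.0%, against 13.8% with DMSO) and lay within the DMSO range, and the log2 fold change was -0.17 (SE 0.09, limma adjusted p = 0.771). SCARNA6 was at 57.4, 76.0, 78.0, 69.0 and 61.2 RPKM with DMSO and at 54.0, 55.7, 66.1, 58.4 and 76.0 RPKM with GW3965, with a log2 fold change of -0.14 (SE 0.11, limma adjusted p = 0.88). The ratio of SCARNA5 to SCARNA6 was 2.16 ± 0.109 with DMSO and 2.13 ± 0.254 with GW3965 (SD, n = 5 each), with a range of 1.79 to 2.41. Both RNAs were above their host, since ATG16L1 was at 7.21 ± 0.762 RPKM with DMSO and 6.86 ± 0.51 RPKM with GW3965.

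SCARNA21, an H/ACA scaRNA, was at 35.0, 36.7, 37.1, 40.6 and 36.4 RPKM with DMSO and at 33.0, 43.2, 55.9, 43.5 and 46.4 RPKM with GW3965. A total of 4 GW3965 libraries were above every DMSO library and GW3965 library 1 was below all of them. The log2 fold change was 0.24 (SE 0.11, limma adjusted p = 0.735), and 0.15 without GW3965 library 3. It ran from 0.15 to 0.34 when single libraries were left out. SCARNA7, a box C/D scaRNA in the importin gene KPNA4, was at 19.3, 16.0, 15.5, 16.6 and 13.1 RPKM with DMSO and at 14.3, 15.6, 16.2, 18.5 and 16.8 RPKM with GW3965. Its values overlapped over the whole range, with a log2 fold change of 0.02 (SE 0.10).

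SCARNA9, a box C/D scaRNA that guides methylation of U2 snRNA, was the member that stood furthest apart. It was at 7.96, 7.89, 6.83, 8.34 and 6.47 RPKM with DMSO and at 8.66, 11.1, 12.7, 11.8 and 9.09 RPKM with GW3965. The lowest GW3965 library was above the highest DMSO library, so the groups did not overlap. In reads, the libraries held 73 to 118 with DMSO and 104 to 170 with GW3965. The log2 fold change was 0.50 (SE 0.12, 95% interval 0.24 to 0.75, 1.41-fold), with an unadjusted p of 0.00132 and a limma adjusted p of 0.206, so it did not pass the threshold of 0.05. SCARNA9 was 1 of 67 tested members (1.49%) whose groups did not overlap, beside 1.84% of all 20402 tested genes. Its host CEP295 was at 3.75 ± 0.84 RPKM with DMSO and 3.53 ± 0.295 RPKM with GW3965, with a log2 fold change of -0.06 (SE 0.15). Only 41.4% of the windows of SCARNA9 were free of other exons, since the Rfam entries RF00494 and RF00493 are annotated inside it. Both entries were listed at 0 in all libraries, and where on SCARNA9 its reads fell was not tested.

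**Figure D2:**
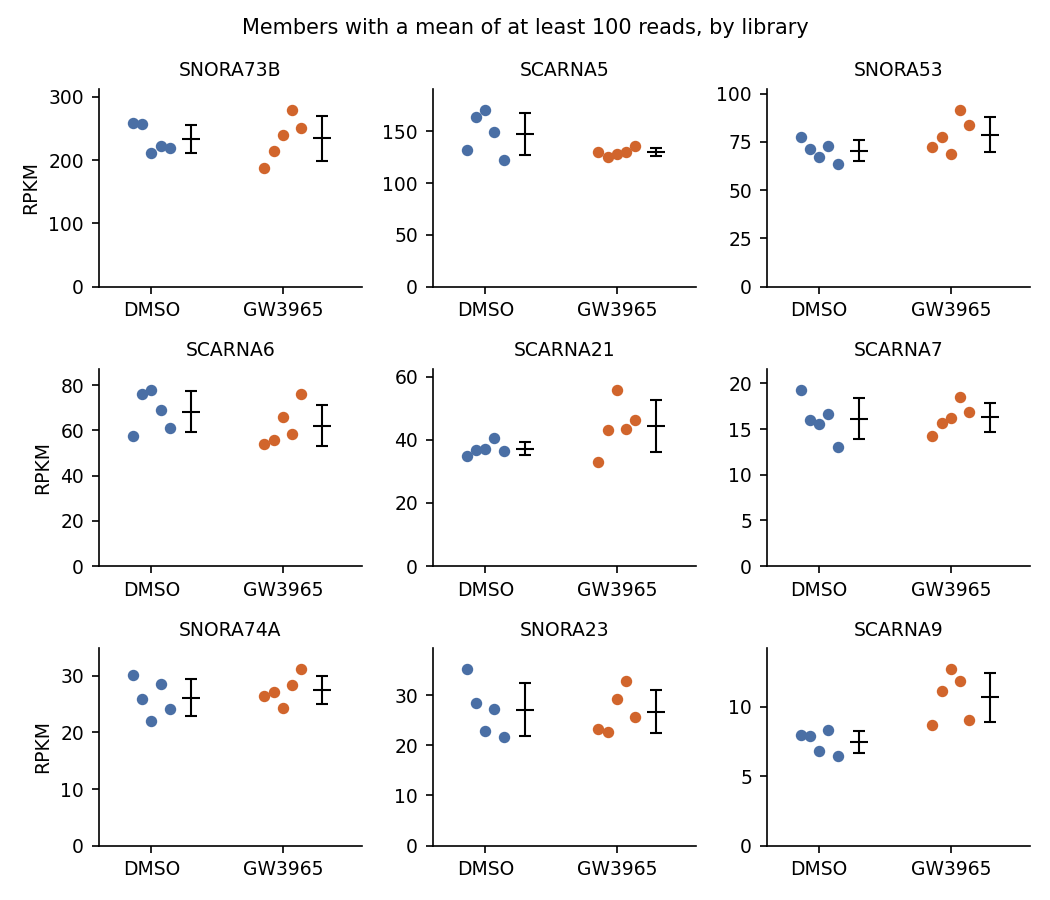
RPKM of the 9 members with a mean of at least 100 reads, 1 panel each and each y axis starting at 0; points are the 5 libraries of DMSO (blue) and GW3965 (orange), and bars beside them the mean and SD. SCARNA9 is the panel in which the groups do not overlap, from 6.47 to 8.34 RPKM with DMSO and from 8.66 to 12.7 RPKM with GW3965.

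The spread between libraries followed the number of reads. The 67 members with a mean of at least 0.5 RPKM were tested, 56 SNORA and 11 SCARNA, and 27 members with reads fell under this limit. For the 9 members with at least 100 reads the median SD within groups was 0.183 on the log2 scale, for the 17 with 20 to under 100 reads it was 0.392, for the 16 with 10 to under 20 it was 0.55 and for the 25 with fewer than 10 it was 0.866. The variance was above what counting of reads gives, by a median factor of 5.42 in the first of these classes and 1.83 in the last. The 95% interval of the log2 fold change reached a median of 0.236 to either side for the first class and 1.05 for the last. For all 26 members with at least 20 reads the interval excluded a log2 fold change of 1 in either direction, and for 11 of the other 41.

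None of the 67 tested members passed the threshold of an adjusted p under 0.05 in the limma test of GW3965 against DMSO, where 32 of the 20402 tested genes did (0.157%). The lowest adjusted p was 0.206 for SCARNA members and 0.245 for SNORA members. At an unadjusted p under 0.05 there were 7 members (10.4%), 6 higher and 1 lower with GW3965, beside 6.99% of all tested genes. The values of 42 members were higher and of 25 lower with GW3965, beside 10420 higher and 9982 lower of all 20402 tested genes. The members share the same libraries and are not replicates. The median log2 fold change was 0.12 for the 56 SNORA genes and 0.02 for the 11 SCARNA genes, beside 0.003 for all tested genes and 0.06 for 59 tested SNORD genes. The SNORA median rested on single libraries: leaving out DMSO library 5 or 3 gave 0.0248 or 0.0812, and leaving out GW3965 library 4, 5 or 1 gave 0.00897, 0.0701 or 0.194. The sign of the SCARNA median was not stable either, since it ran from -0.12 to 0.15 when single libraries were left out and was -0.03 to 0.11 under other settings.

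Among the 26 members with a mean of at least 20 reads, 16 were higher and 10 lower, and all log2 fold changes lay between -0.38 and 0.50. After SCARNA9, the highest values belonged to SNORA10B (0.46, SE 0.22, limma adjusted p = 0.734), SNORA7B (0.41, SE 0.24, limma adjusted p = 0.811) and SCARNA21. SNORA10B was at 7.84, 9.58, 9.44, 9.09 and 5.57 RPKM with DMSO and at 9.95, 7.15, 10.7, 14.2 and 16.5 RPKM with GW3965. The GW3965 library 2 was below 4 of the DMSO libraries. SNORA7B was at 5.21, 3.22, 4.52, 6.62 and 3.77 RPKM with DMSO and at 3.60, 6.12, 7.60, 8.74 and 5.55 RPKM with GW3965, and its groups overlapped as well. Both are copies of RNAs in ribosomal protein genes. Of the windows of SNORA10B 62 of 84 also occur in SNORA10 and its host RPS2, and of SNORA7B 38 of 90 in SNORA7A and its host RPL32, so part of their reads could have come from those genes. With library weights the log2 fold change of SNORA7B was 0.67, and it ran from 0.28 to 0.60 when single libraries were left out.

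The lowest values among these 26 were those of SNORA59A (-0.38, SE 0.22), SNORA59B (-0.30, SE 0.19), SNORA5A (-0.30, SE 0.17) and SCARNA5, with limma adjusted p-values of 0.804, 0.833, 0.804 and 0.771. Without GW3965 library 1 the log2 fold change was -0.16 for SNORA59B and -0.19 for SNORA5A, and with library weights it was -0.14 for SNORA59B and -0.20 for SNORA59A. When other single libraries were left out, it reached -0.41 for SNORA59B, -0.41 for SNORA5A and -0.53 for SNORA59A. SNORA59A, in VPS13D, was at 10.9, 10.4, 7.82, 11.1 and 7.31 RPKM with DMSO and at 5.03, 5.10, 10.9, 7.99 and 8.32 RPKM with GW3965. The GW3965 libraries 1 and 2 were below all DMSO libraries and the other three lay within their range. SNORA59B, in SLC47A1, is annotated with 701 bases and holds all 103 windows of the 152 bases of SNORA59A, so the 2 values cannot be taken as separate. SNORA5A and SNORA5C lie 424 bases apart in TBRG4, which encodes a mitochondrial protein. SNORA5A was at 7.35, 11.1, 11.1, 9.22 and 11.7 RPKM with DMSO and at 5.93, 7.65, 8.87, 7.80 and 11.1 RPKM with GW3965. SNORA5C, at 0.18 (SE 0.20), was on the other side of 0, and the ratio of SNORA5A to SNORA5C was 1.42 ± 0.267 with DMSO and 1.02 ± 0.205 with GW3965 (SD, n = 5 each). The remaining 12 of these 26 members were all SNORA genes with mean levels of 4.33 to 14.8 RPKM, and their log2 fold changes ran from -0.07 to 0.23, 9 above and 3 below 0.

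**Figure D3:**
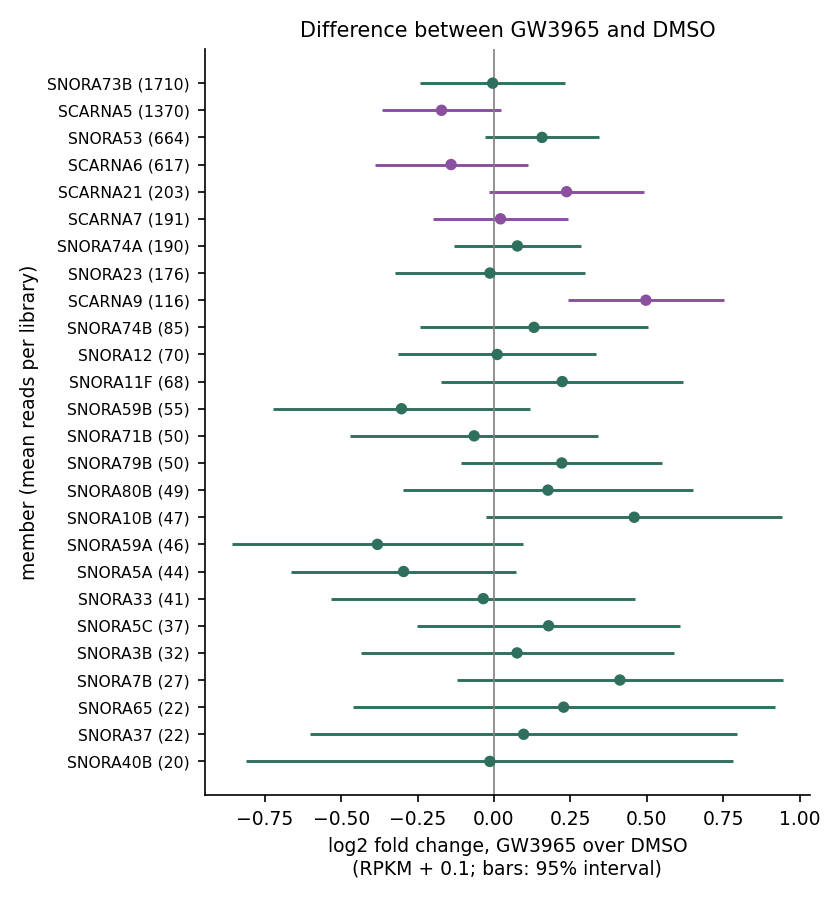
Log2 fold change of RPKM + 0.1 between GW3965 and DMSO (x axis, positive when higher with GW3965) with its 95% interval for the 26 members with a mean of at least 20 reads, in order of the mean reads given in brackets; purple marks SCARNA and green SNORA genes. The interval of SCARNA9 (0.24 to 0.75) is the only one that does not reach 0.

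The 6 further members with an unadjusted p under 0.05 were all shallow, with means of 4.1 to 16.5 reads, and are named because of that p. SNORA22C had 3, 6, 3, 4 and 5 reads with DMSO and 5, 7, 14, 10 and 8 with GW3965 (log2 fold change 0.94, limma adjusted p = 0.245), and 37 of its 85 windows also occur in SNORA22 and SNORA22B. SNORA49 had 4, 1, 0, 3 and 5 reads with DMSO and 10, 6, 19, 1 and 15 with GW3965 (log2 fold change 1.80, limma adjusted p = 0.711). SNORA24B was the member that was lower, with 8, 13, 11, 20 and 16 reads against 12, 7, 8, 8 and 8 (log2 fold change -0.61, limma adjusted p = 0.579). The other three, SNORA2C, SNORA63D and SCARNA20, had 62, 20 and 15 reads in all DMSO libraries and 103, 35 and 26 in all GW3965 libraries. Only 14.8% of the windows of SNORA2C were free of other exons. In each of the 6 the groups overlapped. The 5 tested scaRNAs not described so far were all at a mean under 20 reads. SCARNA1 was at 3.09 RPKM on average with DMSO and 3.15 with GW3965, SCARNA18 at 2.69 and 2.84, SCARNA8 at 2.35 and 1.74, SCARNA3 at 2.27 and 1.41 and SCARNA11 at 0.661 and 0.612. None of these differences had an unadjusted p under 0.05.

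The summed level of the families did not separate the groups. The SNORA genes together were at 616, 587, 514, 553 and 516 RPKM with DMSO and at 491, 527, 576, 687 and 635 RPKM with GW3965. The means were 557 ± 44.5 and 583 ± 79.3 RPKM (SD, n = 5 each). The SCARNA genes together were at 268, 314, 320, 297 and 249 RPKM with DMSO and at 254, 261, 293, 278 and 297 RPKM with GW3965, with means of 290 ± 30.2 and 276 ± 19.0 RPKM. In both families the GW3965 values overlapped the DMSO values, and SNORA73B made up a large part of the first sum, which was 324 ± 24.6 and 349 ± 45.3 RPKM without it.

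The host genes and the protein partners of these RNAs were tested in the same fit. Of 49 tested host genes of tested members none passed the threshold, beside 0.157% of all tested genes. An unadjusted limma p under 0.05 was found for 2 hosts (4.08%), beside 6.99% of all tested genes. The groups of 1 host, EIF3A, did not overlap (2.04%, beside 1.84% of all tested genes). The log2 fold changes of the 49 hosts lay between -0.12 and 0.22. Across the 55 tested members with a tested host, Spearman's rho between the fold changes of member and host was -0.03, and between their levels 0.11, as a description over RNAs that share the same libraries. Among the 21 of these members with a mean of at least 20 reads, rho was 0.29 for the fold changes and 0.22 for the levels. A member was above its host in RPKM in 15 of the 55 pairs, and in 12 of the 21 pairs with at least 20 reads. For members spanned by several genes, such as SNORA73B, a protein-coding gene was taken as host before others, and then the shortest. Other choices of host were not tested.

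Of the 32 listed genes for the proteins and for telomerase, 30 were tested, none passed the threshold and none had an unadjusted p under 0.05 (limma, 16 higher and 14 lower, lowest adjusted p 0.804). Of all tested genes, 0.157% passed the threshold and 6.99% had an unadjusted limma p under 0.05. The core H/ACA proteins were led by NOP10 at 39.9 ± 4.71 RPKM with DMSO and 39.3 ± 4.87 RPKM with GW3965. NHP2 was at 20.8 ± 2.93 and 22.4 ± 4.53 RPKM, DKC1 at 6.24 ± 0.678 and 6.28 ± 0.875 RPKM, and GAR1 at 3.71 ± 0.284 and 3.79 ± 0.652 RPKM (SD, n = 5 each). All 4 log2 fold changes lay between -0.02 and 0.09. In the Cajal body, COIL, which encodes coilin, was at 8.95 ± 0.55 and 9.65 ± 0.574 RPKM, and WRAP53, which brings scaRNAs and telomerase RNA to this body, at 2.58 ± 0.333 and 2.36 ± 0.239 RPKM. The highest log2 fold change of the list was that of PHAX, an export adaptor of small nuclear RNAs (0.21, SE 0.12), and the lowest that of TOE1, a 3′ end exonuclease (-0.12, SE 0.12). SMN1 and SMN2 are near-identical, so their separate levels of 17.4 and 17.9 RPKM are uncertain. The telomerase RNA TERC, itself an H/ACA RNA, held 0 to 13 reads per library and its enzyme TERT 4 to 18, and both were under the limit for the test.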

How the data were processed

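The labels name polyA RNA, whereas their protocol describes stranded total RNA with ribosomal RNA removed. The submitters' processing notes name hg38, HISAT2 2.1.0, HTSeq 0.11.2 and DESeq2 1.22.2; the methods name a mouse genome, although all identifiers are human. The annotation release and counting rule are not given in the sources used here. The authors deposited RPKM values of 62656 genes in 10 columns. Reads were recovered as whole multiples of the value of 1 read, for 100.0% of the 47537 genes above 0 (tolerance 1e-05 reads). The library factor was a median-of-ratios size factor (0.861 to 1.21) times a constant, to within 1.64e-07. Without molecular identifiers, reads are not independent molecules.

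Groups came from the sample titles. All genes averaging 0.5 RPKM or more (20402) were fitted with limma 3.58.1 (R 4.3.3, lmFit, eBayes with trend) on log2(RPKM + 0.1), two-sided, with Benjamini-Hochberg adjustment over all of them. This scale understates fold changes of low genes. The fit was run on simulated data as a check of the code. That check does not show how small a difference in the members would be found. Alternatives were other pseudocounts (1 and 0.01), filters, scalings, variance models, a fit of the recovered reads (voom) and leaving out each library. Positions, exons and sequences came from GENCODE 29 (GRCh38), which held all 174 members.

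Members, lists and tests were chosen with earlier results of these data known. Named members were those with a mean of at least 100 reads (all SCARNA, at most 8 SNORA), the 4 highest and 4 lowest log2 fold changes at a mean of at least 20 reads, and their hosts; others are marked.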

Additional observations from a re-analysis of the deposited data

How the results depend on the processing

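The count of members past the threshold stayed at 0 for SNORA and for SCARNA genes under each of the 21 alternatives, as did the counts for the host genes and the protein genes. Over all tested genes the count was 32, and 16 to 59 under the alternatives, lowest with the replicate block and highest with voom on recovered reads. The lowest adjusted p of a member was 0.0762, for SCARNA9 with library weights, and between 1 (voom on recovered reads) and 11 (library weights) members had an unadjusted p under 0.05. The log2 fold change of SCARNA9 lay between 0.43 and 0.57 in every alternative, with adjusted p-values of 0.0762 to 0.441. The members whose sign turned had differences near 0. SNORA73B gave 0.0134 with quantile normalization and 0.0369 with library weights, and -0.0706 to 0.0724 when single libraries were left out. SCARNA7 gave -0.00675 when scaled by total reads without 7SL RNA and -0.00526 with quantile normalization, and -0.0503 to 0.089 without single libraries. SNORA23 gave 0.0749 with library weights and -0.0898 to 0.0858 without single libraries. The cause was not tested. The sums ran from -0.00366 to 0.117 (log2, SNORA) and from -0.117 to -0.0266 (SCARNA) without single libraries.

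With the replicate number as a block, 0 members passed the threshold, and 16 genes in all did, against 32 without it. The lowest adjusted p of a member was then 0.252, and 8 members, against 7, had an unadjusted p under 0.05, with SNORA5A at 0.00392 (0.105 without the block) and SCARNA21 at 0.0413 (0.063). The correlation of the deviations of same-numbered libraries was 0.149, -0.0488, 0.0386, 0.16 and -0.138, which shows no clear pairing by number. Of the DMSO libraries, only number 4 correlated most with the GW3965 library of its own number. Whether libraries of the same number were handled together cannot be told from these values. Depth limits what can be said of the 25 tested members with fewer than 10 reads.

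None of the 32 groups of 5 libraries that were examined for the named members and the sums held a library apart from the others (gap above 0.71 of the range, where chance gives about 1 in 20).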
